A study of Mus musculus with 8 samples.

Results

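Dpyd, which encodes dihydropyrimidine dehydrogenase, and 9 further genes of pyrimidine metabolism (Dpys, Upb1, Upp1, Upp2, Tymp, Cda, Umps, Dhodh and Cad) were examined in mouse mammary tumors with and without miR-21. Dpyd was selected on its higher level in irradiated miR-21-/- tumors than in irradiated miR-21+/+ tumors in these same arrays, so that difference is given as a description with no test. The other genes were chosen as enzymes of the same pathway. Members were all array features (probe sets) annotated with exactly 1 of these symbols, which gave 152 probe sets of the 233753 with a single symbol and 10 genes of 23152. Each Dpyd probe set was read on its own (21 in all), and the probe sets of a gene were averaged to a gene level.

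The tumors were mammary fat pad primary tumors of female mice carrying MMTV-PyMT, the polyoma middle T oncogene driven by a viral promoter active in mammary epithelium. All 4 groups carried this transgene, and each group had 2 arrays: untreated miR-21+/+, irradiated miR-21+/+, untreated miR-21-/- and irradiated miR-21-/-. The labels give a dose of 8 Gy at a tumor volume of 1000 mm3 and growth to 2000 mm3 before collection, whereas the study's methods give a lower dose and one of its legends a collection soon after irradiation. miR-21 was deleted throughout the mouse, tumor stroma included, and the labels do not say whether arrays of a group came from separate mice, so p-values measure the spread between these arrays.

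Pyrimidine bases are broken down by reduction, ring opening and cleavage, which Dpyd, Dpys and Upb1 catalyze in that order, and Dpyd is the rate-limiting enzyme and also the main enzyme that inactivates the drug 5-fluorouracil. Upp1, Upp2 and Tymp split nucleosides into base and sugar and Cda deaminates cytidine, while Cad, Dhodh and Umps build uridine monophosphate from simple precursors. The liver is the main site of the breakdown pathway, and in human mammary epithelial cells DPYD is known to accompany the epithelial-mesenchymal transition.

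The sequences of the deleted miRNA and of the regions before the genes Dpyd and Umps, the members with the widest genotype difference and the lowest p for irradiation, are given as RefSeq gives them for GRCm38.p6. The miRNA lies at chr11:86584120-86584141 on the minus strand, and the capitals mark its seed, bases 2 to 8. The Dpyd stretch covers the 179 bases at chr3:118561930-118562108 on the plus strand that end where the annotated gene begins, and the Umps stretch the 250 bases at chr16:33967039-33967288 read on the minus strand. In the Umps stretch the capitals mark the GC box.
mmu-miR-21a-5p: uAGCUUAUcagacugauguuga
Dpyd: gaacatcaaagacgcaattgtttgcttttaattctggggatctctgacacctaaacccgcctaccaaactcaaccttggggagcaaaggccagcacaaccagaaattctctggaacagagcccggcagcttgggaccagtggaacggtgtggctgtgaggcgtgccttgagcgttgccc
Umps: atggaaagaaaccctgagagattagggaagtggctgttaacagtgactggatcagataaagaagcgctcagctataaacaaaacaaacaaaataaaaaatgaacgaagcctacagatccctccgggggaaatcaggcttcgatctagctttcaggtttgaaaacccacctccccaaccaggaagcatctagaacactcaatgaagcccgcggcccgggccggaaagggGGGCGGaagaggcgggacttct

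Of the members, 8 had at least 1 promoter window in the RefSeq table. Both strands of the 250 bases before each listed start site were searched for the GC box GGGCGG, held by 32.7% of 32851 windows, for CCAAT (33.8%) and for the E-box CACGTG (6.02%), motifs whose letters do not overlap each other. The Dpyd window held 2 GC boxes, which lay within the annotated gene and are therefore not printed, the Umps window held 1 and the Cad window held 2. Upp2 held 3, Upp1 held 1 in each of 2 windows and Cda held 1, and CCAAT was found in the windows of Upb1 (2), Tymp (2) and Upp2 (1). None of the searched windows of the members held CACGTG. These matches are a description of letters and not of bound sites.

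Epithelial genes were present on all 8 arrays, with a mean log2 level of 7 luminal markers between 7.95 and 9.0. The array of irradiated miR-21-/- replicate 1 stood apart: its correlation with the other 7 arrays over all genes was 0.898 to 0.915, against 0.955 to 0.987 for the remaining 21 pairs. Its mean level of 10 adipocyte genes was 10.58, against 4.34 to 5.16 on the others. Its fibroblast (8.80 against 6.59 to 7.16) and endothelial (7.65 against 5.29 to 6.50) means were also the highest, while its luminal mean was the lowest. Among the luminal markers, Krt8, Krt18, Epcam, Cdh1 and Elf5 were lowest on this array. Krt19 lay within the range of the others, and Esr1 was highest, at 8.09 against 5.04 to 6.0. The neutrophil mean was highest on untreated miR-21+/+ replicate 1 (6.83, against 4.20 to 4.81), and the macrophage mean ranged from 6.01 to 7.48. The probe set shared by Mir21 and its neighbor Vmp1 read 2.34 to 3.08 on the miR-21+/+ arrays and 1.69 to 2.02 on the miR-21-/- arrays, without overlap; it is dim, and the sources used here do not say whether it lies in the deleted part. Differences of the irradiated miR-21-/- group are therefore given with and without replicate 1 for Dpyd, Upb1, Cda, Tk1 and Slc28a3. Other values of this group include that array unless stated. Without it the irradiated genotype difference was 0.23 for Dpys and -0.33 for Cad. Irradiated minus untreated in miR-21-/- tumors was then -0.395 for Umps.

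Dpyd separated the genotypes in untreated tumors as well as in the irradiated tumors it was selected on. Its gene-level log2 values were 4.57 and 4.71 in untreated miR-21+/+ tumors and 6.77 and 6.72 in untreated miR-21-/- tumors. After irradiation they were 4.31 and 4.86 in miR-21+/+ tumors and 7.82 and 6.59 in miR-21-/- tumors. No miR-21+/+ value reached the lowest of the miR-21-/- values, and within each genotype the untreated and irradiated values overlapped.

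In untreated tumors, whose arrays the selection did not use, Dpyd was 2.11 higher in miR-21-/- tumors on the log2 scale. The SE was 0.38 and the 95% interval 1.22 to 3.0 (n = 2 arrays per group), for a ratio of 4.31 (2.33 to 7.97). That SE comes from all 8 arrays, the irradiated ones included. The SD of Dpyd was 0.87 in irradiated and 0.04 in untreated miR-21-/- tumors, and 0.39 and 0.10 in miR-21+/+ tumors. The test is therefore not fully separate from the selection. The difference exceeded the spread between arrays at an unadjusted p of 0.000676 in limma. The p adjusted over all 23152 genes was 0.0718, short of 0.05, and 0.423% of all genes passed that adjusted threshold. With either irradiated miR-21-/- array left out of the fit, the adjusted p of the same difference was 0.00204, whereas it was 0.395 without untreated miR-21+/+ replicate 1, 0.475 without untreated miR-21-/- replicate 1 and 0.404 without its replicate 2. With a replicate block it was 0.119. The untreated groups also differed in marker levels: the macrophage mean was 6.01 and 6.08 in untreated miR-21-/- tumors and 6.89 and 6.96 in untreated miR-21+/+ tumors, and the endothelial mean 5.36 and 5.32 against 5.94 and 6.50. Their part in the Dpyd difference was not tested. With a threshold of a 2-fold change at an unadjusted p under 0.05, which the study used, Dpyd was the only member that passed here, against 3.11% of all genes.

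In irradiated tumors the difference was 2.62 (ratio 6.13), with group means of 7.20 ± 0.87 and 4.59 ± 0.39 (SD, n = 2). It was 2.0 without irradiated miR-21-/- replicate 1 and 3.23 without replicate 2. The adipocyte mean of replicate 2, at 4.67, lay within the range of the other groups, and Dpyd on that array (6.59) was above every miR-21+/+ array. The part of adipose, stromal and endothelial RNA in the 7.82 of replicate 1 was not tested, and in bulk tissue a change in the number of cells of a type and in RNA per cell cannot be told apart.

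Irradiated minus untreated, Dpyd differed by -0.05 in miR-21+/+ tumors and by 0.46 in miR-21-/- tumors. Without irradiated miR-21-/- replicate 1 the second of these was -0.16, and without replicate 2 it was 1.07. In order of group means, Dpyd was highest in irradiated miR-21-/- (7.20) and untreated miR-21-/- tumors (6.75), whose arrays overlapped, followed by untreated (4.64) and irradiated (4.59) miR-21+/+ tumors, which also overlapped.

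**Figure D1:**
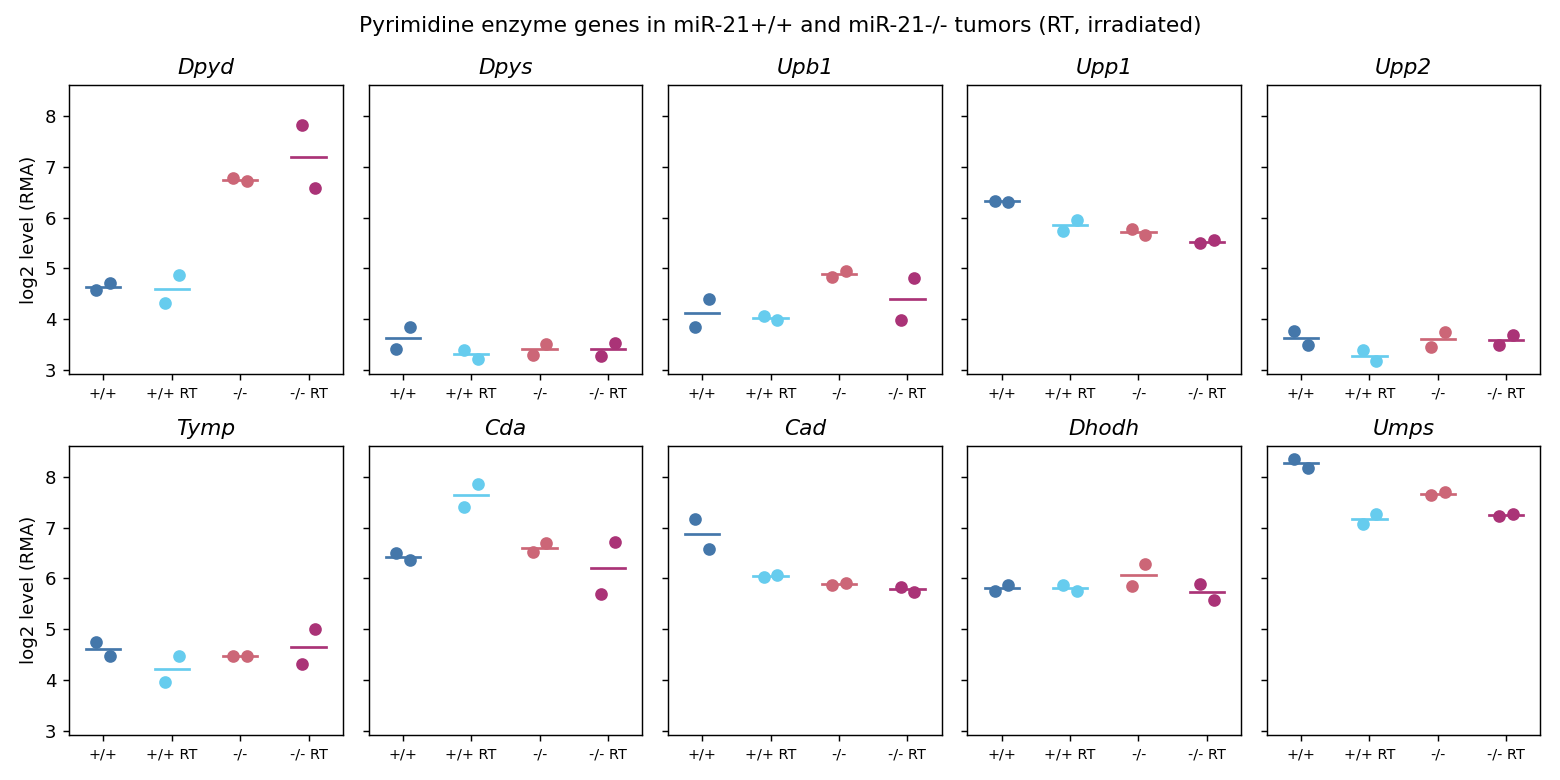
Log2 gene levels of the 10 genes on each of the 8 arrays (points) with group means (lines), for miR-21+/+ and miR-21-/- tumors, RT marking irradiated groups. Dpyd lies at 6.59 or more on all miR-21-/- arrays and at 4.86 or less on all miR-21+/+ arrays.

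The genotype difference ran across nearly the whole set of Dpyd probe sets. In untreated tumors 20 of 21 were higher in miR-21-/-, with a median difference of 2.12 and a range from -0.74 to 4.02. On 18 probe sets both untreated miR-21-/- arrays lay above both untreated miR-21+/+ arrays, against 23.9% of all 233753 probe sets. In limma on single probe sets, 15 of the 21 had an unadjusted p under 0.05, against 10.2% of all probe sets, and none passed after adjustment, where the share over all probe sets was 0.0%.

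Individual probe sets showed the difference to different degrees. Probe set 17402137 read 3.73 and 4.29 in untreated miR-21+/+, 7.76 and 7.35 in untreated miR-21-/-, 3.04 and 4.13 in irradiated miR-21+/+ and 8.46 and 7.23 in irradiated miR-21-/- tumors. Probe set 17402129, with the widest untreated difference (4.02), read 0.51 and 4.50 in untreated miR-21+/+ and 6.54 and 6.51 in untreated miR-21-/- tumors. On both probe sets the genotypes were apart in both treatments, although the untreated difference of 17402129 rested partly on a single very low miR-21+/+ value.

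The exception was probe set 17402118, which read high on every array. It read 9.78 and 9.78 in untreated miR-21+/+ tumors, 9.07 and 9.02 in untreated miR-21-/- tumors, 9.31 and 9.50 in irradiated miR-21+/+ tumors and 10.41 and 9.42 in irradiated miR-21-/- tumors. The untreated groups did not overlap and ran opposite to the other probe sets (difference -0.74, unadjusted p = 0.101 in limma). Beside it, 17402114 was higher in untreated miR-21-/- tumors by 0.64 and was the only probe set lower in irradiated miR-21-/- than in irradiated miR-21+/+ tumors, at -0.46. The median irradiated difference over the 21 was 2.66, and irradiated miR-21-/- replicate 1 was the highest array on 20 of them.

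**Figure D2:**
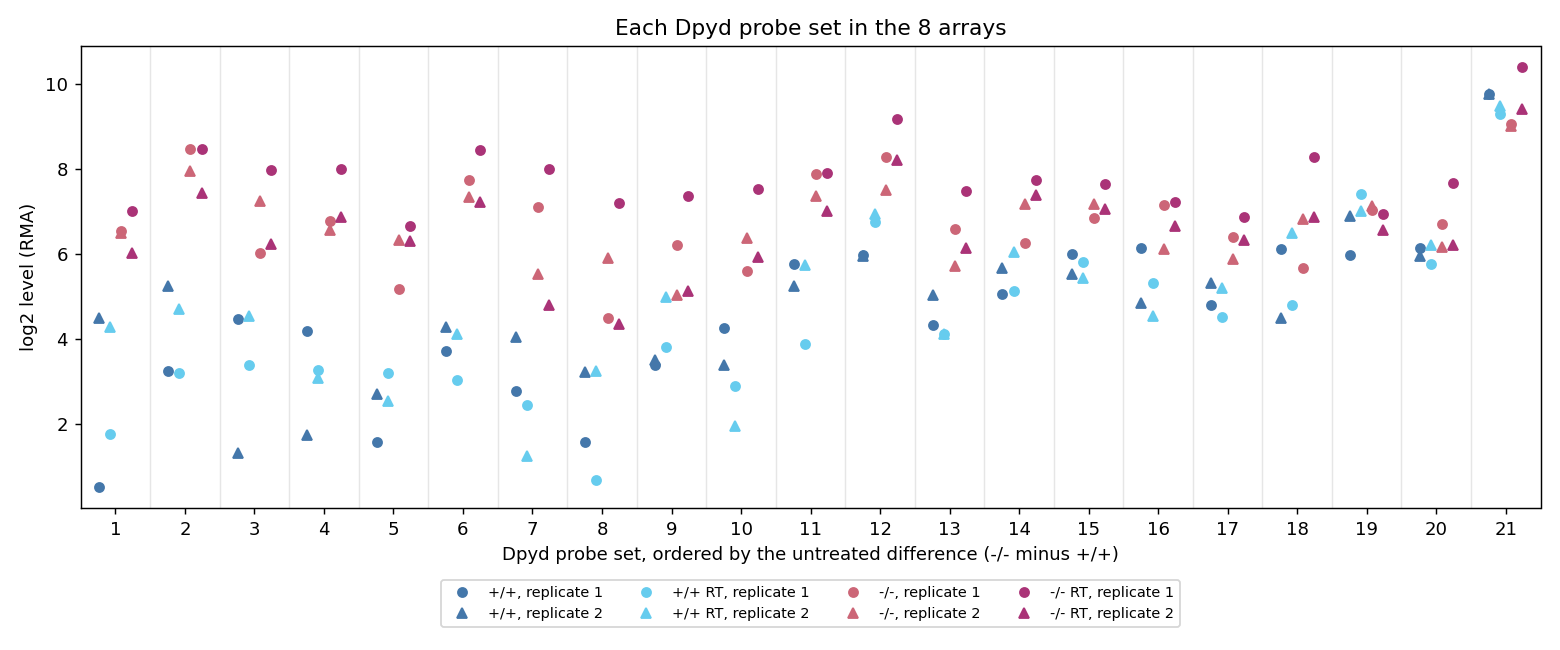
Log2 level of each of the 21 Dpyd probe sets on the 8 arrays, ordered by the untreated difference (miR-21-/- minus miR-21+/+), with color for group and shape for replicate. The miR-21-/- arrays sit above the miR-21+/+ arrays on most probe sets, while the last in the order (17402118) is bright on every array and lower in untreated miR-21-/- tumors.

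The neighbors of Dpyd on chromosome 3 did not share its pattern as a block. In untreated tumors, Palmd, a gene for a cytosolic palmdelphin protein, differed by 1.51 (unadjusted p = 0.00261, adjusted p = 0.121 in limma). Rwdd3, which promotes sumoylation, differed by 0.89 (unadjusted p = 0.00488, adjusted p = 0.156). The adjoining Snx7 and Ptbp2, on either side of Dpyd, differed by -0.10 and -0.11. In irradiated tumors Palmd was at -0.71 and Rwdd3 at 0.39, values that include irradiated miR-21-/- replicate 1. Among the 10 measured neighbors (5 on each side) none came near the Dpyd values in both treatments. The part of the surrounding region in the Dpyd difference was not tested.

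The genes whose levels followed Dpyd most closely over the 8 arrays, among 10775 genes with at least 3 probe sets and a mean above the median gene, were Amigo2 (Pearson's r 0.982, Spearman's rho 0.881), Lifr (0.973, 0.976), Cym (0.972, 0.929), Ralgapa2 (0.969, 0.857), Pcmtd1 (0.966, 0.833), Mmaa (0.966, 0.881), Pon3 (0.963, 0.905) and Cnnm2 (0.960, 0.905). Amigo2 is a leucine-rich adhesion protein, Lifr the receptor for leukemia inhibitory factor, Pon3 a lactonase and Mmaa a mitochondrial protein of cobalamin handling. Without the arrays farthest from the Dpyd median (irradiated miR-21+/+ replicate 1 and irradiated miR-21-/- replicate 1), r over the remaining arrays ranged from 0.944 (Lifr) to 0.983 (Amigo2). The 8 arrays fall into the study's groups, so these values describe a shared pattern of group levels and carry no p.

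Lifr shows what such a pattern looked like. It read 6.69 and 6.80 in untreated miR-21+/+, 6.57 and 7.06 in irradiated miR-21+/+, 7.73 and 7.82 in untreated miR-21-/- and 8.21 and 7.36 in irradiated miR-21-/- tumors. As for Dpyd, the genotypes did not overlap and irradiated miR-21-/- replicate 1 was highest.

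Of the enzymes that act after Dpyd, Upb1 was higher in untreated miR-21-/- tumors at an unadjusted p only, and both genotype intervals of Dpys included 0. Dpys, the dihydropyrimidinase that opens the ring, stayed between 3.22 and 3.85 on all arrays, below the median gene level of an array (5.09 to 5.16), and its genotype difference was -0.22 in untreated tumors (95% interval -0.72 to 0.28) and 0.09 in irradiated tumors (-0.40 to 0.59). Upb1, the beta-ureidopropionase that ends the pathway, read 3.85 and 4.40 in untreated miR-21+/+ and 4.84 and 4.94 in untreated miR-21-/- tumors, and 4.06 and 3.99 against 3.99 and 4.81 after irradiation. The untreated groups were apart, with 12 of 13 probe sets higher, while the irradiated groups overlapped.

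The Upb1 difference of 0.76 in untreated tumors (95% interval 0.07 to 1.46) had an unadjusted p of 0.0358 and an adjusted p of 0.334 in limma. It was 0.22 (adjusted p = 0.852) with medians of the probe sets and 0.49 without untreated miR-21+/+ replicate 1. The interval of the irradiated difference, -0.32 to 1.07 around 0.38, covers both 0 and the untreated value, and without irradiated miR-21-/- replicate 1 that difference was 0.79.

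Enzymes that release or convert bases and nucleosides behaved differently from each other. Cda, the cytidine deaminase, read 6.50 and 6.36 in untreated miR-21+/+ tumors and 7.41 and 7.86 in irradiated miR-21+/+ tumors. In miR-21-/- tumors it read 6.52 and 6.69 untreated and 5.70 and 6.71 irradiated. Both irradiated miR-21+/+ arrays were above all 6 others, and the low value of 5.70 belonged to irradiated miR-21-/- replicate 1, the array that also had the lowest luminal mean.

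Irradiated minus untreated, Cda differed by 1.21 in miR-21+/+ tumors (95% interval 0.44 to 1.97, unadjusted p = 0.00702, adjusted p = 0.297) and by -0.40 in miR-21-/- tumors (-1.17 to 0.37), or 0.11 without irradiated miR-21-/- replicate 1. All 6 of its probe sets were higher after irradiation in miR-21+/+ tumors. Between irradiated genotypes the difference was -1.43 (SE 0.33, adjusted p = 0.135), or -0.92 without that replicate. The interaction, the radiation effect in miR-21-/- minus that in miR-21+/+, was -1.61 (95% interval -2.69 to -0.52, unadjusted p = 0.00949, adjusted p = 0.463 in limma). None of these passed after adjustment. Without irradiated miR-21-/- replicate 1 the interaction was -1.10. Without replicate 2, which leaves replicate 1 as the only array of its group, it was -2.11.

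Upp1, the widely expressed uridine phosphorylase, read 6.32 and 6.31 in untreated and 5.74 and 5.95 in irradiated miR-21+/+ tumors, and 5.78 and 5.66 in untreated and 5.49 and 5.56 in irradiated miR-21-/- tumors. Untreated miR-21+/+ tumors were above the other 6 arrays. The difference was -0.60 between untreated genotypes (unadjusted p = 0.00744, adjusted p = 0.181) and -0.47 between irradiated and untreated miR-21+/+ tumors (0.0235, adjusted p = 0.436).

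Upp2, the uridine phosphorylase best known from liver, stayed between 3.18 and 3.77, and Tymp, the thymidine phosphorylase, between 3.96 and 5.0. Neither had an unadjusted p under 0.05 in any of the 7 comparisons. A further 3 probe sets annotated to both Sco2 and Tymp, 17320476 among them, could not be assigned to 1 gene and were left out.

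The de novo enzymes Umps and Cad were highest in untreated miR-21+/+ tumors. Umps, which makes orotate into uridine monophosphate, read 8.36 and 8.19 in untreated and 7.07 and 7.27 in irradiated miR-21+/+ tumors. In miR-21-/- tumors it read 7.65 and 7.70 untreated and 7.23 and 7.28 irradiated. Untreated miR-21+/+ arrays were the highest, untreated miR-21-/- arrays next, and the irradiated arrays of both genotypes overlapped below them.

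For Umps, irradiated minus untreated was -1.10 in miR-21+/+ tumors (SE 0.17, 95% interval -1.49 to -0.71), with an unadjusted p of 0.000236 and an adjusted p of 0.0651 in limma, and all 8 probe sets were lower. In miR-21-/- tumors it was -0.42 (adjusted p = 0.438), with 7 of 8 probe sets lower. The interaction of 0.68 had an unadjusted p of 0.0227 and an adjusted p of 0.540. Averaged over both genotypes the radiation difference was -0.76 (adjusted p = 0.0644), the lowest adjusted p of any member for radiation, and with each array left out that p ranged from 0.00649 (without irradiated miR-21-/- replicate 2) to 0.365 (without untreated miR-21-/- replicate 2), passing 0.05 only without 1 of the irradiated miR-21-/- arrays.

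Cad, the protein that carries the opening steps of the pathway, read 7.17 and 6.57 in untreated and 6.04 and 6.07 in irradiated miR-21+/+ tumors. It read 5.87 and 5.92 in untreated and 5.84 and 5.73 in irradiated miR-21-/- tumors. The untreated miR-21+/+ arrays were above the other 6, which lay close together. Between untreated genotypes the difference was -0.98 (95% interval -1.49 to -0.47, adjusted p = 0.116), with 37 of 41 probe sets lower, and for irradiation of miR-21+/+ tumors it was -0.82 (-1.33 to -0.31, adjusted p = 0.282), again with 37 of 41 lower. The latter ranged from -1.12 to -0.52 with each array left out, at -0.52 without untreated miR-21+/+ replicate 1. In irradiated tumors the genotype difference was -0.27 (-0.78 to 0.24).

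Dhodh, the mitochondrial enzyme between Cad and Umps, stayed between 5.57 and 6.29 and had no unadjusted p under 0.05 in any comparison. Its radiation difference in miR-21+/+ tumors was 0.00 with an interval from -0.49 to 0.49.

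The mean of 9 proliferation genes, Mki67 and Top2a among them, was 8.17 and 7.73 in untreated miR-21+/+ tumors and 7.09 and 7.13 in irradiated miR-21+/+ tumors. It was 6.73 and 6.81 in untreated and 5.93 and 6.04 in irradiated miR-21-/- tumors. The highest values were in the untreated miR-21+/+ group, as for Umps, Cad and Upp1. The group means of Cad and Upp1 followed the group order of the proliferation mean. Umps and the proliferation mean ordered the irradiated miR-21+/+ and the untreated miR-21-/- arrays differently. The part of proliferating cells in the Umps, Cad and Upp1 values was not tested.

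**Figure D3:**
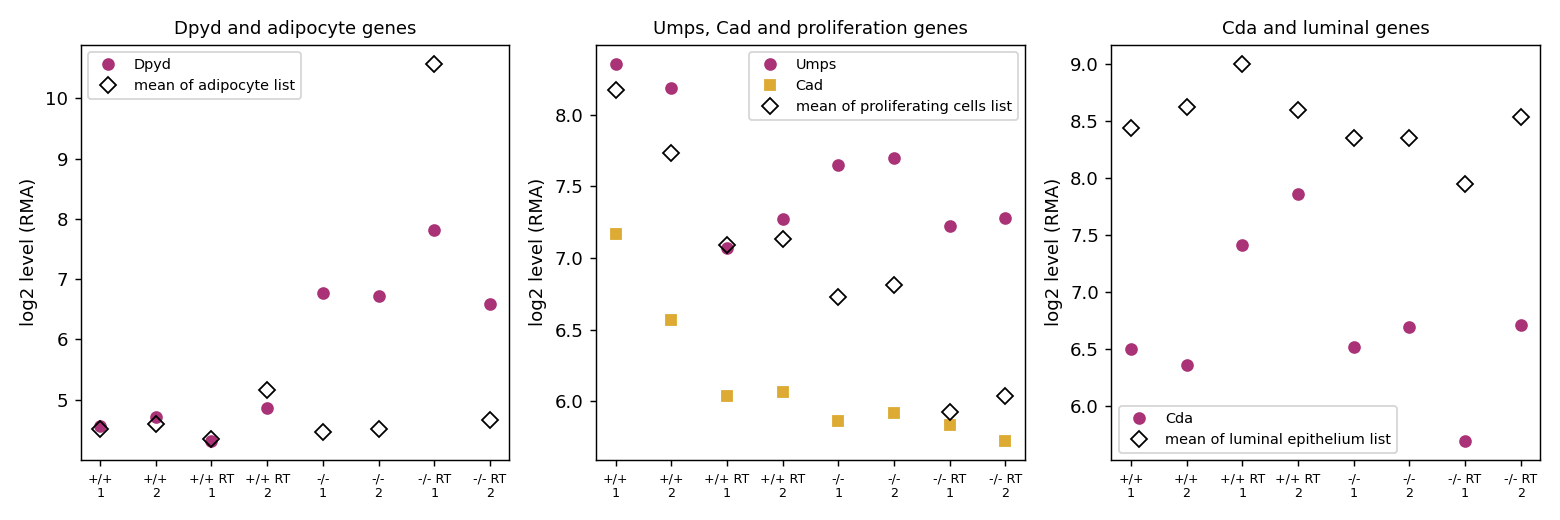
Log2 levels of Dpyd, of Umps and Cad, and of Cda on each array, beside the mean of the adipocyte, proliferation and luminal marker lists (open diamonds), with group and replicate on the horizontal axis. The adipocyte mean is high on 1 array (10.58), while Dpyd is at 6.59 or more on all 4 miR-21-/- arrays.

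Dpyd was selected on the irradiated arrays and is left out of the counts between irradiated genotypes and for the mean over treatments. Between irradiated genotypes none of the other 9 members passed the adjusted threshold of 0.05 in limma, against 0.406% of all genes. Cda, lower in miR-21-/- tumors, was the only one of them with an unadjusted p under 0.05 and also reached the 2-fold threshold there, against 3.96%.

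Between untreated genotypes no member passed after adjustment, while 5 had an unadjusted p under 0.05 (Dpyd and Upb1 higher, Upp1, Umps and Cad lower), against 13.2% of all genes. For irradiation of miR-21+/+ tumors no member passed after adjustment, against 0.212%, and 4 had an unadjusted p under 0.05 (Cda higher, Umps, Cad and Upp1 lower), against 8.88%. Cda and Umps also reached 2-fold there, against 2.1% of genes. The untreated miR-21+/+ arrays enter both of these comparisons, so the values of Umps, Cad and Upp1 in them are not independent.

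For irradiation of miR-21-/- tumors no member passed (0.013% of genes did), and Umps alone had an unadjusted p under 0.05, against 11.0%. The interaction passed for no member (0.00432% of genes), with Cda and Umps under an unadjusted 0.05, against 8.03%. Averaged over treatments, the genotype difference passed for none of the 9 members other than Dpyd, against 2.34% of genes. Averaged over genotypes, the radiation difference passed for no member, against 0.307%, and Umps, Cad and Upp1 had an unadjusted p under 0.05, against 11.1%.

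**Figure D4:**
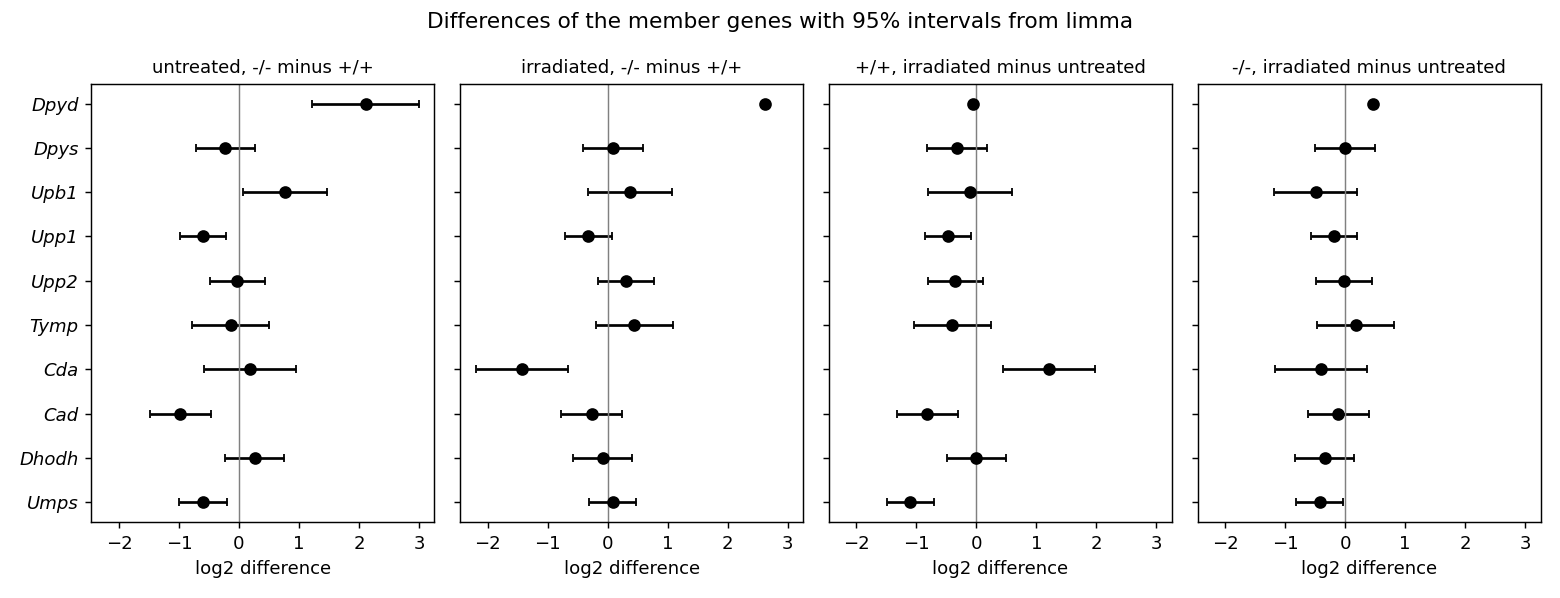
Log2 differences of the 10 genes with 95% intervals from limma for the genotype comparison in untreated and in irradiated tumors and for irradiation in each genotype. Dpyd differs by 2.11 and 2.62 between genotypes, and its interval is drawn for untreated tumors only, because the other differences contain the irradiated arrays it was selected on. The spread behind the untreated interval also takes in those arrays.

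Wider pyrimidine metabolism was followed with a list of 42 further genes, of which 39 were measured. After adjustment in limma 1 was lower in miR-21-/- tumors when untreated (0.423% of all genes passed) and 1 when irradiated (0.406%), Tk1 in both, and none was higher. Averaged over treatments 5 were lower, Tk1, Nt5c, Nt5e, Rrm1 and Nt5c3, and none was higher, against 2.34% of all genes. The radiation comparisons and the interaction gave no call. At an unadjusted p under 0.05, irradiation of miR-21+/+ tumors gave 10 of 39 (9 lower and 1 higher, against 8.88% of all genes) and irradiation of miR-21-/- tumors 8, all lower (11.0%). Averaged over genotypes there were 15 (14 lower and 1 higher, 11.1%), and the interaction gave 3 (2 lower and 1 higher, 8.03%). The list's median genotype difference was -0.22 in untreated tumors and -0.28 in irradiated tumors, beside 0.03 and 0.00 over all genes.

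Tk1, the cytosolic thymidine kinase of dividing cells, read 8.61 and 8.16 in untreated and 7.50 and 7.67 in irradiated miR-21+/+ tumors. It read 6.56 and 6.48 in untreated and 5.53 and 6.16 in irradiated miR-21-/- tumors. The genotypes did not overlap, and the differences were -1.87 untreated (adjusted p = 0.0375) and -1.74 irradiated (adjusted p = 0.0459). Leaving out any 1 array other than an irradiated miR-21-/- array raised these adjusted p values above 0.05, to at most 0.384 and 0.309, and without irradiated miR-21-/- replicate 1 the irradiated difference was -1.43.

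Among nucleotidases, which remove phosphate from nucleotides, Nt5c read 8.89 and 8.82 in untreated miR-21+/+, 7.68 and 7.88 in untreated miR-21-/-, 9.23 and 8.97 in irradiated miR-21+/+ and 7.77 and 7.98 in irradiated miR-21-/- tumors. Its genotypes did not overlap in either treatment, and its mean difference was -1.15 (adjusted p = 0.0103). Nt5e, the cell-surface nucleotidase CD73, was at -1.16 (adjusted p = 0.0245), Nt5c3 at -0.73 (0.0416) and Rrm1, the large subunit of ribonucleotide reductase, at -0.97 (adjusted p = 0.0363). These averaged calls, Tk1 and Nt5c included, were each lost when 1 of several untreated arrays of either genotype or irradiated miR-21+/+ arrays was left out, with adjusted p of at most 0.188. Tk1 and Nt5c lie in the distal end of chromosome 11 from Cpsf4l to B3gntl1, where the median mean-genotype difference of 161 measured protein-coding genes was -0.63; over the 37 list genes outside it the median was -0.26. The share of Tk1 and Nt5c in that regional difference, and of proliferating cells in the Tk1 and Rrm1 values, was not tested.

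Ctps, which makes CTP from UTP and so follows the de novo members, read 7.51 and 7.26 in untreated miR-21+/+ tumors and 6.20 and 5.81 in untreated miR-21-/- tumors, and 6.39 and 6.89 against 6.21 and 6.43 after irradiation. Its untreated difference of -1.38 had an adjusted p of 0.066 and its interaction, 1.06, an adjusted p of 0.496. Like Cad, Ctps was highest in untreated miR-21+/+ tumors. For radiation in miR-21+/+ tumors the lowest p values of the list belonged to Uck2 (-0.79), Tyms (-0.78), Mthfd1 (-0.75) and Shmt2 (-0.76), with adjusted p from 0.262 to 0.358, and in miR-21-/- tumors to Dck (-0.70), Agxt2 (-0.53), Uck2 (-0.57) and Dctd (-0.61), from 0.358 to 0.407.

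Genes for the fate of the beta-amino acids that the Dpyd route yields were dominated by 1 array. Aldh6a1, the methylmalonate semialdehyde dehydrogenase, read 10.10 on irradiated miR-21-/- replicate 1 and 6.64 to 7.43 on the other 7, and Abat, the 4-aminobutyrate aminotransferase, 6.33 against 4.45 to 4.86. Agxt2, which uses beta-aminoisobutyrate, did not follow them: it read 3.76 and 3.71 in untreated miR-21+/+ and 4.54 and 4.29 in untreated miR-21-/- tumors (difference 0.68, adjusted p = 0.151) and 3.81 on that array. The concentrating nucleoside transporter gene Slc28a3 read 7.23 there and 8.75 to 9.93 elsewhere, with an interaction of -2.24 (adjusted p = 0.579), or -1.20 without that array. The array is the one with an adipocyte mean of 10.58, and the part of adipose RNA in these values was not tested.

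**Figure D5:**
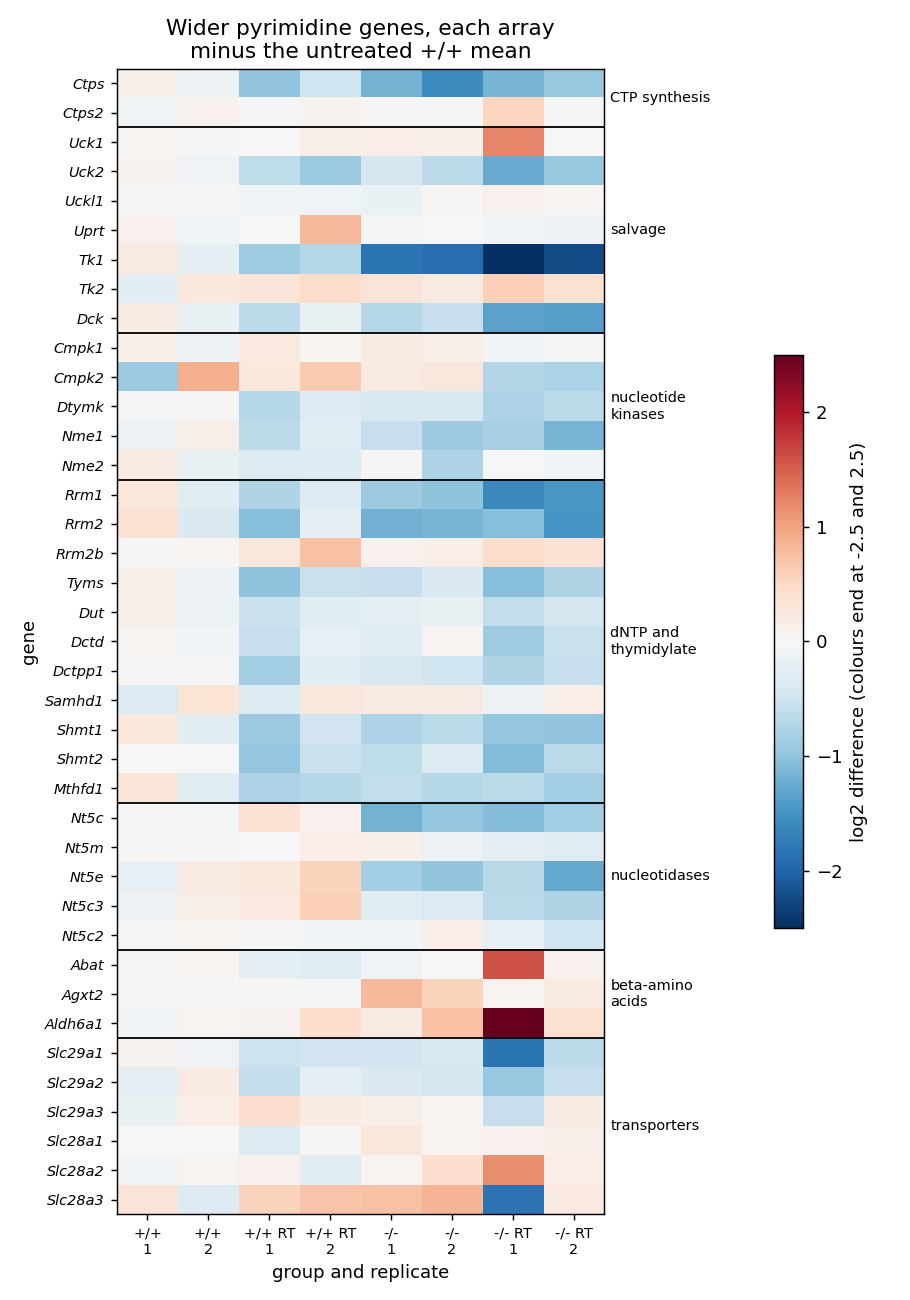
Log2 level of the 39 further pyrimidine genes (rows, grouped by role) on each array (columns), minus the mean of the untreated miR-21+/+ arrays; blue is lower and red higher. Tk1, Rrm1 and Nt5c are blue on all 4 miR-21-/- arrays, and Aldh6a1 and Abat are red on irradiated miR-21-/- replicate 1.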

How the data were processed

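Total RNA of 8 tumors was hybridized to an Affymetrix mouse gene array (Mouse Gene 2.0-ST in the study's methods). The deposited values are log2 intensities per probe set that the authors made by RMA, which corrects background, equalizes array distributions and summarizes probes, in Affymetrix Expression Console 1.4, and Transcriptome Analysis Console 3.1 is also named in the submitters' notes. Normalizing all arrays to 1 distribution means that values are relative within an array. Gene names came from the platform annotation; 5139 probe sets with several symbols and 30859 with none were not used, and no genome build is given in the sources used here.

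Probe sets of a gene were averaged. Linear models with a mean per group were fitted to all 8 arrays and 23152 genes in limma 3.58.1 (R 4.3.3, with 4 residual and 3.54 prior degrees of freedom). Benjamini-Hochberg adjustment was made over all genes for each of the 7 comparisons. The number of arrays, 2 per group, limits the precision. Genes named were the 10 members in every comparison, the Dpyd probe sets, the wider-list genes past an adjusted 0.05 (or the 4 lowest p where fewer passed), and the 8 genes most correlated with Dpyd. Members and all lists, including 7 marker lists (adipocyte, luminal, fibroblast, macrophage, neutrophil, endothelial and proliferation genes), were chosen with earlier results of these data known. Alternatives were another set of arrays in the fit, a variance trend, genes above the median, quantile normalization, medians of probe sets, no probe sets under a mean log2 of 4, a replicate block, single probe sets and each array left out.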

Additional observations from a re-analysis of the deposited data

Results flagged for a closer look

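Cda stood out because its genotype difference ran one way in untreated and the opposite way in irradiated tumors on every array. Untreated miR-21-/- arrays (6.52 and 6.69) were above both untreated miR-21+/+ arrays (6.50 and 6.36), although the closest values were nearly equal, and irradiated miR-21-/- arrays (5.70 and 6.71) were below both irradiated miR-21+/+ arrays (7.41 and 7.86). The irradiated minus the untreated genotype difference was -1.61 (unadjusted p = 0.00949, adjusted p = 0.463 in limma), so it did not pass over all genes. Without irradiated miR-21-/- replicate 1 it was -1.10.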

How the results depend on the processing

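At the gene level the difference of Dpyd between genotypes kept its sign under the alternatives run, while on single probe sets 17402118 was at -0.74 in untreated and 17402114 at -0.46 in irradiated tumors. Between untreated genotypes it was 2.11 with an adjusted p of 0.00122 when only those arrays were fitted, and 2.04 to 2.18 with each array left out (adjusted p 0.00204 to 0.475). Between irradiated genotypes it was 2.0 to 3.23 with each array left out, 2.0 without irradiated miR-21-/- replicate 1 and 3.23 without replicate 2. Dpyd was selected on the irradiated contrast, so its calls there and for the mean over treatments are not listed under the processing alternatives. The counts with each array left out, given below, do include Dpyd in every comparison. Between irradiated genotypes and for the mean genotype difference, those counts are therefore not counts of the other members, and their Dpyd calls are no test. With only the arrays compared, 2 members passed an adjusted 0.05 between untreated genotypes (Dpyd and Cad), against 5.23% of all genes. In that setting 1 passed for irradiation of miR-21+/+ tumors (Umps), against 0.989%. With genes above the median, Umps passed for radiation averaged over genotypes, against 0.76% of the genes tested. With each array left out, the count ranged from 0 to 2 between irradiated genotypes, 0 to 2 between untreated genotypes, 0 to 2 for irradiation of miR-21+/+ tumors, 0 to 3 for irradiation of miR-21-/- tumors, 0 to 1 for the interaction, 0 to 4 for the mean genotype difference and 0 to 1 for the mean radiation difference. In those fits the lone array is assumed to vary like the other groups, which was not tested. Over all genes, calls between irradiated genotypes (94) ranged from 0 to 183 and between untreated genotypes (98) from 34 to 1210 over the processing settings. Correlations of deviations between groups by replicate number were -0.133 to 0.042, which with 2 arrays per group cannot show whether the arrays were paired. With the replicate block Tk1 (0.0875 irradiated, 0.0783 untreated), Nt5e (0.0512), Rrm1 (0.071) and Nt5c3 (0.0698) lost their calls. Of 19 member differences besides Dpyd with an unadjusted p under 0.05 and 29 named wider-list differences, 0 changed sign in any setting. They were picked for low p on these same arrays, so the kept signs are no separate test. Of the 44 other member differences, 17 changed sign under a processing setting and 16 without at least 1 array. Dim genes such as Dpys and Upp2 limit what these arrays can show.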
